A study of Drosophila melanogaster with 18 samples.

Results

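Divergent initiation sites are pairs of transcription start positions that lie back to back, with the minus-strand site to the left of the plus-strand site, so that transcription from each runs away from the other. Here they were taken from a list of 13218 single-base initiation sites that the genome-wide STAP-seq screen of Drosophila melanogaster gave. For every site the nearest site on the opposite strand of the same chromosome was found. A site was kept as divergent where that neighbour was 1 to 250 bp away and the minus-strand site of the pair had the smaller coordinate. Of the 12469 sites on the 6 main chromosome arms 2L, 2R, 3L, 3R, 4 and X, 1017 were kept, which is 8.16%. They comprised 508 minus-strand and 509 plus-strand sites. No site within 250 bp had neighbours of both orientations at the same distance. The other 749 sites of the list lie on scaffolds of heterochromatin named Het.

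A core promoter is the short stretch around a start site on which the general transcription factors and RNA polymerase II assemble. It is directional: elements such as the TATA box and the initiator point the polymerase one way. Back-to-back initiation therefore usually takes separate core promoters, either those of head-to-head genes, which are common in the compact fly genome, or those of an active element that is transcribed outward on both strands. Many promoters of mammals give such outward transcription, whereas those of Drosophila are known to be largely one-directional. STAP-seq asks how well a DNA fragment starts transcription on its own. Fragments are cloned upstream of a reporter, and the 5′ ends of reporter transcripts that begin inside the fragment are sequenced, so a fragment reports on the strand that reads into the reporter.

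The screen used 4 samples of S2 cells, a Drosophila line derived from late embryos that resembles macrophage-like blood cells: 2 samples with the enhancer of zfh1, a gene for a transcription factor, on the plasmid, and 2 with a vector that carried no enhancer. All 4 used fragments of about 100 to 250 bp of DNA from y; cn bw sp embryos, the strain used for the reference genome. A smaller screen used fragments of bacterial artificial chromosomes (BACs), with 3 zfh1 samples and 1 sample without an enhancer, and gave a list of 753 sites. Within each screen, samples with and without the enhancer are labelled with 1 shared list, so the lists do not separate the conditions. Each list holds 1 set of positions with no level and no column per sample. Depth, the strength of a site and the spread between replicates therefore have no values here, and all intervals below cover counting error only. Positions are 1-based in dm3, and whether a pair lies in or beside a gene was not analysed here.

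Most of the divergent sites formed simple pairs. In 427 mutual pairs each site was the nearest opposite-strand site of the other, and these held 854 sites, 84.0% of the 1017. The remaining 163 sites chose a partner that itself had a nearer neighbour. That partner was a divergent site in 106 cases and a convergent one, facing a site across from it, in 57 cases. Linking every divergent site to its partner gave 472 loci with a median span of 110.5 bp. Of these, 379 (80.3%) held 1 minus-strand and 1 plus-strand site, 75 held 3 sites, and 18 held 4 or 5. A convergent partner was not linked on to its own nearer neighbour, so not all loci of 2 are mutual pairs. On 2R, for example, loci from 4747790 to 4747869 and from 4747873 to 4747908 each held 1 divergent site and counted separately. The loci of 3 added a second site about as often to the minus strand (41 loci) as to the plus strand (34 loci).

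The loci with the most divergent sites held 5 each, and they differed in how the strands shared them. On 2L a locus from 18881149 to 18881359 had 4 minus-strand sites and 1 plus-strand site. On 3R the locus from 10114821 to 10115046 had the opposite arrangement, 1 minus-strand site followed by 4 plus-strand sites. On 3L, from 21872488 to 21872759, 2 minus-strand sites preceded 3 plus-strand sites. Both loci on X, from 7453610 to 7453744 and from 18586771 to 18587011, had 3 minus-strand and 2 plus-strand sites. The rule itself puts the minus-strand sites of a locus to the left. The widest of the 472 loci was the one on 3L, with a span of 272 bp.

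The distance between the sites of a mutual pair was used by the rule and is given as a description. It had a median of 83 bp (95% order-statistic interval 69 to 97), quartiles of 38.5 and 139 bp, and a range of 1 to 249 bp. The 263 convergent mutual pairs of the same arms, whose sites face each other, were closer together, with a median of 39 bp (35 to 43) and quartiles of 18 and 75.5 bp. Divergent spacings were not spread evenly over the range. Bins of 10 bp held 48 divergent pairs at 51 to 60 bp, the fullest bin, while the bins on its sides held 21 (41 to 50 bp) and 14 (61 to 70 bp). The convergent pairs had 18 at 51 to 60 bp, between 22 and 21.

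**Figure D1:**
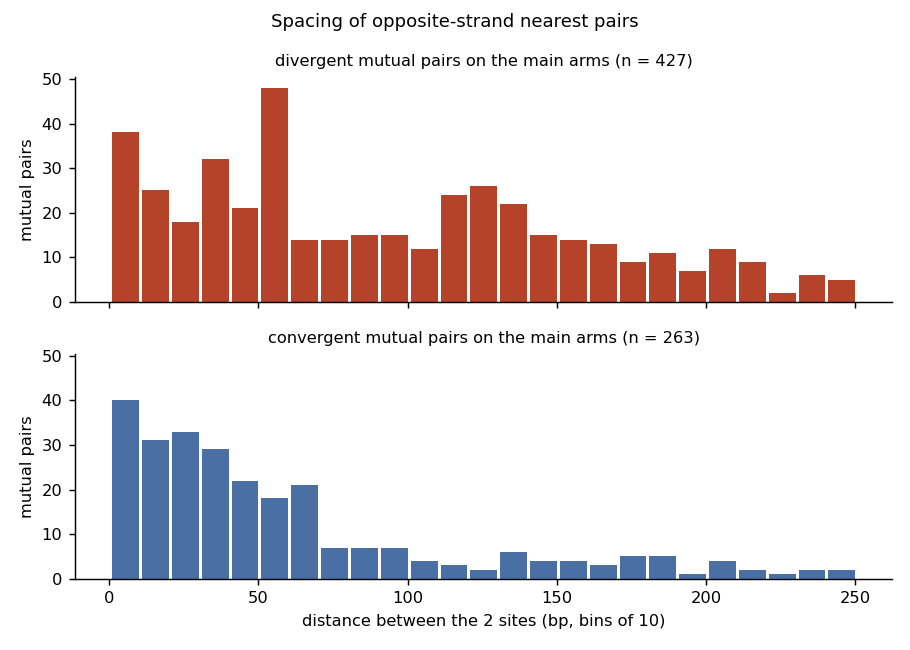
Number of mutual pairs (vertical axis) by the distance in bp between their sites (horizontal axis, bins of 10 bp), for the 427 divergent pairs (top) and the 263 convergent pairs (bottom) on the main arms. The divergent pairs have 48 in the bin of 51 to 60 bp and a broad rise at 111 to 140 bp, while the convergent pairs lie mostly below 70 bp.

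Within the fullest bin the pairs gathered on a few exact distances. The most common distance of all was 56 bp, with 10 pairs, and 54 and 55 bp had 7 pairs each. Outside this bin, 9 and 121 bp also had 7 divergent pairs each, against 4 and 0 convergent ones. Together the distances of 54 to 56 bp held 24 divergent pairs (5.62%), against 5 convergent pairs (1.90%). The 24 pairs were not on 1 stretch of the genome: 3 lay on 2L, 5 on 2R, 5 on 3L, 5 on 3R, 1 on chromosome 4 and 5 on X. This spacing was singled out after the distances had been seen, so no test is given.

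A second, broader group of spacings lay farther out. From 111 to 140 bp the bins held 24, 26 and 22 divergent pairs, against 3, 2 and 6 convergent ones. Over 101 to 150 bp there were 99 divergent pairs (23.2%) and 19 convergent pairs (7.22%). At the other end, the distances of 1 to 50 bp held 134 divergent pairs (31.4%), and 155 convergent pairs (58.9%). In 67 divergent pairs (15.7%) the start sites were at most 21 bp apart, against 73 convergent pairs (27.8%). They were on neighbouring bases in 6 of the 67 divergent pairs and in 0 convergent pairs.

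The closest and the widest pairs were spread over the arms. Neighbouring bases carried the minus-strand and plus-strand sites on 3L at 1674884 and 1674885, on 2R at 11043004 and 11043005, on 3L at 13512701 and 13512702, on 2L at 8277697 and 8277698, and on 3R at 11718071 and 11718072 and at 15822066 and 15822067. The widest mutual pair was 249 bp across, on 3R from 25433928 to 25434177. It was followed by pairs of 247 bp on X, from 3070227 to 3070474 and from 2228127 to 2228374, of 246 bp on 3R, from 21732508 to 21732754, and of 244 bp on 2R, from 3041143 to 3041387.

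At the limit of 250 bp the numbers dropped. Sites with a divergent nearest neighbour numbered 149 at 151 to 200 bp and 93 at 201 to 250 bp inside the limit, and 29 at 251 to 300 bp and 41 at 301 to 350 bp outside it. The convergent ones numbered 53, 31, 25 and 42 in the same steps. The last site inside was a plus-strand site on 3L at 7753644, with its neighbour 250 bp away. The first outside was a minus-strand site on 3R at 3374799, at 251 bp.

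Every arm carried divergent pairs. Arm 3R had 115 mutual pairs, 3L had 90, 2R had 86, X had 72, 2L had 60 and chromosome 4 had 4. Per Mb of the span that listed sites cover on an arm, 3R held 4.13 pairs (exact Poisson 95% interval 3.41 to 4.96), 2R 4.07 (3.25 to 5.02), 3L 3.68 (2.96 to 4.53), X 3.21 (2.51 to 4.05) and 2L 2.61 (1.99 to 3.36). The interval of 2L ended below the lower bound of 3R, and those of the other arms overlapped each other. The estimate for chromosome 4, 3.40 per Mb, rests on 4 pairs, and its interval of 0.926 to 8.70 holds those of all the other arms.

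Relative to the number of sites on the arm, the share of divergent ones did not differ between arms past the threshold. To avoid counting both strands of a pair, minus-strand sites were compared, by Fisher's exact test against the other arms together. A locus with more than 1 divergent minus-strand site still entered more than once, so the counted sites are not all independent. On 2L 70 of 1074 minus-strand sites were divergent (6.52%, Wilson 95% interval 5.19 to 8.15), against 8.54% of those on the other arms (unadjusted exact p = 0.0276, Benjamini-Hochberg (BH) adjusted over the 6 arms 0.165). The share was 9.01% on 3R (7.68 to 10.5), 8.63% on 3L (7.21 to 10.3), 8.36% on X (6.80 to 10.2) and 7.84% on 2R (6.48 to 9.45), with adjusted p-values of 0.361, 0.775, 0.850 and 0.775. On chromosome 4 it was 13.95%, or 6 of 43 sites (6.56 to 27.3, adjusted exact p = 0.361). Thus 0 of the 6 arms (0%) passed the adjusted test, and 1 of them, 2L, had an unadjusted p under 0.05.

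**Figure D2:**
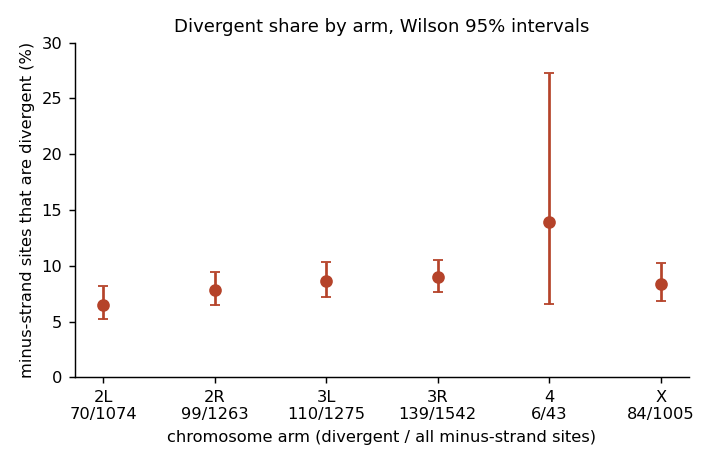
Percentage of the minus-strand sites of each arm that are divergent (vertical axis), with Wilson 95% intervals as bars and the counts under each arm name. The share lies between 6.52% on 2L and 9.01% on 3R for the 5 long arms, with overlapping intervals, and the interval of chromosome 4 is wide because it rests on 43 sites.

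The median spacing of the mutual pairs was 69.5 bp on 2L, 77 bp on 3L, 88.5 bp on 2R, 89.5 bp on X and 94 bp on 3R, with quartiles on each of these arms between 30.75 and 148.25 bp. The 4 pairs of chromosome 4 had a median of 35.5 bp. Those pairs had their minus-strand sites at 414036, 613178, 614860 and 615729 and their plus-strand sites at 414092, 613213, 614896 and 615746. The last 3 of them thus lay within 3 kb of each other.

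Along the arms, windows of 1 Mb held a median of 3 mutual pairs, and 8 of 123 windows held none. The fullest window, on 2L from 2000000 to 2999999, held 9 pairs among 113 sites, and the next, on 3R from 18000000 to 18999999, held 8 among 129 sites. Windows with more sites tended to hold more pairs (Spearman's rho of 0.597). Neighbouring pairs were a median of 179 kb apart. The longest stretch without a pair was 2068 kb on 2L, from 14813478 to 16881166. The next, 1941 kb from 5336141 to 7277168, was on the same arm. The number of listed sites in these stretches is not given here.

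On the Het scaffolds the same rule gave 58 divergent sites. Counted on minus-strand sites with an opposite-strand site within 250 bp, 508 of 830 were divergent on the main arms (61.2%, 57.8 to 64.5), against 30 of 64 on the Het scaffolds (46.9%, 35.2 to 58.9, Fisher's exact p = 0.0332). The scaffold XHet supplied 21 of these 64 sites, 8 of them divergent. Without it the share on the Het scaffolds was 51.2% (22 of 43, 36.8 to 65.4), and the difference from the main arms no longer passed the test (Fisher's exact p = 0.202). Sites that lie close together are not independent, which makes these p-values too small. The rule that chose the members on the main arms also used this orientation and this limit. The shares are therefore a description, and no conclusion is drawn from these p-values.

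Next, it was asked whether divergent sites tend to have further sites beside them on their own strand. Over the main arms 14.4% of the sites had such a same-strand neighbour at most 100 bp away. Among the divergent sites 232 of 1017 did (22.8%, 20.3 to 25.5), against 134 of 624 convergent sites (21.5%, 18.4 to 24.9) and 1563 of 11452 of all other main-arm sites (13.6%, 13.0 to 14.3). The difference from all other sites passed Fisher's exact test (BH-adjusted over both comparisons 1.13e-13), and the difference from convergent sites did not (adjusted 0.542). Close sites are not independent, and same-strand neighbours often count each other, which makes these p-values too small. The excess was among the sites outside mutual pairs. Of the 854 sites in mutual pairs 103 had such a neighbour (12.1%), against 129 of the 163 others (79.1%), which lie behind another site of their strand in most cases because of how the nearest partner is chosen. With mutual pairs alone, in the divergent and the convergent sites alike, the direction against all other sites turned (-1.08 percentage points, adjusted Fisher's exact p = 0.799).

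Seen pair by pair, 330 of 427 mutual pairs (77.3%) had no further same-strand site within 100 bp of either member. In 91 pairs (21.3%) 1 of the members had one, and in 6 pairs (1.41%) both did. Where a divergent site had a same-strand neighbour within 100 bp, that neighbour was a median of 41.5 bp away (quartiles 30 and 57.5) and never closer than 22 bp. With a margin of 1 kb, 233 divergent pairs (54.6%, 49.8 to 59.2) stood alone with no further site on either strand, against 152 of 263 convergent pairs (57.8%, 51.8 to 63.6), a difference that did not pass Fisher's exact test (p = 0.430). Of the other divergent pairs, 128 had 1 further site in this margin and 66 had more, up to 15.

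**Figure D3:**
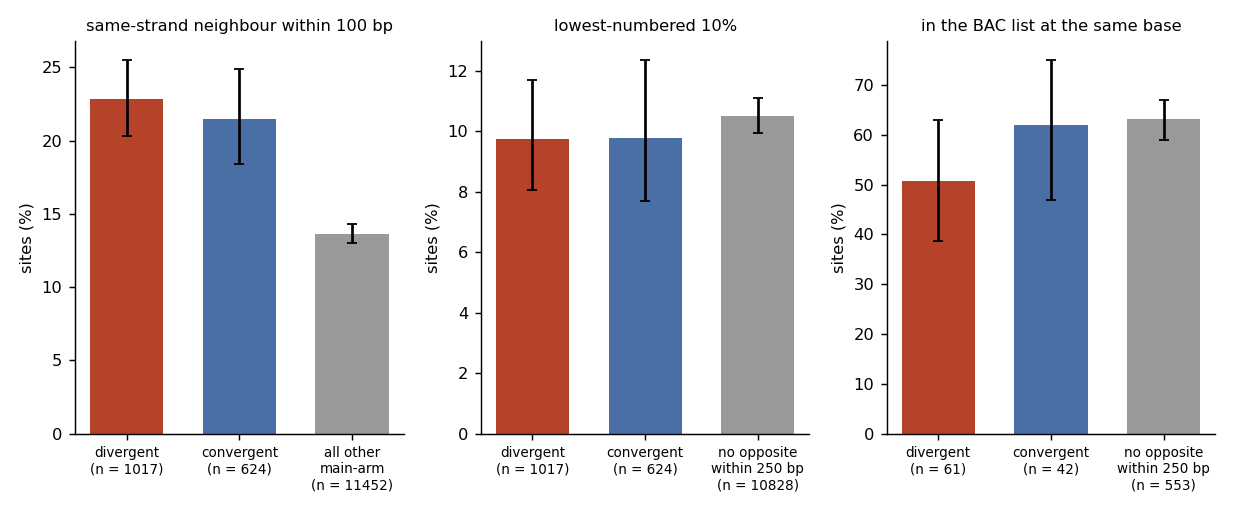
Percentage of sites (vertical axes, Wilson 95% intervals as bars) with a same-strand neighbour within 100 bp (left), with a serial number in the lowest 10% of the list (middle), and, inside the BAC regions, listed in the BAC list at the same base (right). Divergent sites stand at 22.8%, 9.73% and 50.8%; their intervals overlap those of convergent sites in all 3 panels, and lie apart from all other main-arm sites in the left panel.

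The site names hold a serial number that runs up to 13218, and the sources used here do not say what it ranks. Divergent sites were found along the whole range of numbers. In steps of 10% of the list there were 90 to 114 of them, between 7.32% and 9.22% of the main-arm sites of a step. In the lowest 10%, which takes in 10.4% of the main-arm sites, lay 99 of the 1017 divergent sites (9.73%, 8.06 to 11.7). That compares with 61 of 624 convergent sites (9.78%, 7.69 to 12.4) and 1137 of 10828 sites with no opposite-strand site within 250 bp (10.5%, 9.94 to 11.1). Neither difference, of -0.0411 and -0.766 percentage points, passed Fisher's exact test (adjusted p of 1 and 0.971). With mutual pairs alone they were -3.14 and -2.42 and did not pass it either (adjusted Fisher's exact p = 0.0561 and 0.0525).

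Within pairs the numbers of the members showed no common trend. The lower number of a mutual pair had a median of 4134 and the higher one a median of 9648, with a median difference of 3922 (quartiles 1699 and 6828). Across the 427 pairs the numbers of the minus-strand and plus-strand sites had a Pearson's r of -0.08 and a Spearman's rho of -0.07, and across the 263 convergent pairs these were -0.13 and -0.13. They are given as a description, since all pairs share 1 list. In 69 pairs 1 member was in the lowest-numbered 10% of the list, and in none were both. How many pairs unrelated numbers would place there with both members was not tested. The partners of those 69 sites had a median number of 7775, with a range of 2316 to 13146. Both members were in the lowest-numbered 25% in 12 pairs (2.81%), 1 of them was in 169 pairs (39.6%), and neither was in 246 pairs (57.6%).

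**Figure D4:**
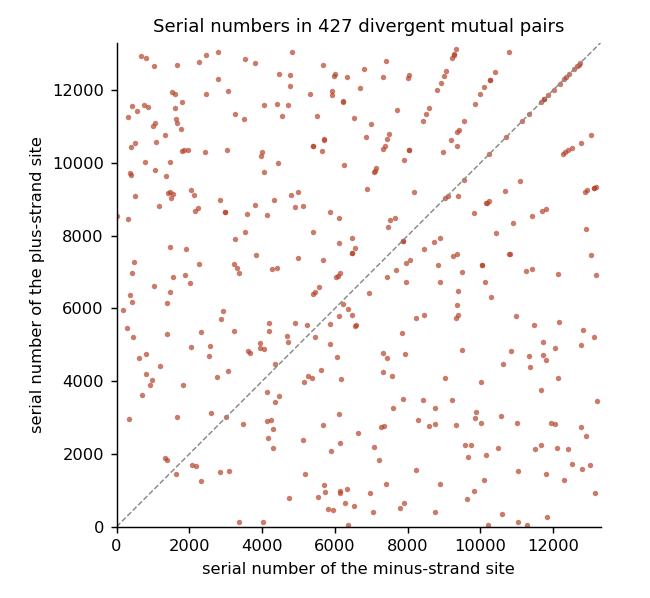
Serial number of the plus-strand site (vertical axis) against that of the minus-strand site (horizontal axis) for the 427 divergent mutual pairs, with equal numbers on the dashed line. The points fill the square without a common trend (rho of -0.07), apart from short slanting rows, mostly at high numbers. The 23 pairs with consecutive numbers lie along the dashed line.

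The lowest number in any mutual pair was 21, for the minus-strand site on 2R at 1579226, whose plus-strand partner at 1579291 had number 8540. The plus-strand site numbered 46 on 3R at 24717616 faced away from a minus-strand site numbered 6368, at 24717514. On 3L the plus-strand site at 8905644 had number 53 and its partner, 7 bp away at 8905637, had 10193. Pairs in which both members had low numbers were few, and whether they were fewer than unrelated numbers would give was not tested. The 5 with the lowest higher number were on X (20201419, number 1626, and 20201620, number 1464), on 3L (9370472, 1388, and 9370588, 1843), on 3R (5358729, 1334, and 5358852, 1880), on 2R (13021587, 2066, and 13021636, 1690) and on 3R again (18228246, 2180, and 18228378, 1658), each given with the minus-strand site first. They were 201, 116, 123, 49 and 132 bp across.

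The minus-strand site had the lower number in 241 of 427 mutual pairs (56.4%, 51.7 to 61.1, exact binomial p = 0.00889), against 135 of 263 convergent pairs (51.3%, 45.3 to 57.3, exact binomial p = 0.711). The result did not hold without pairs numbered in the text order of their positions. Numbers run in 926 stretches over which chromosome and position, sorted as text rather than by value, only ascend. In 23 divergent pairs both members fell into 1 such stretch, with consecutive numbers. In these 23 the minus-strand site, which is the left one, had the lower number in all cases. In the 8 convergent pairs of this kind, where it is the right one, it had the lower number in 0. Without the 23 pairs the minus-strand site had the lower number in 218 of 404 (53.96%, 49.1 to 58.8), which did not pass the test (exact binomial p = 0.123). Without the 8 convergent pairs, it did so in 135 of 255 convergent pairs (52.9%, exact binomial p = 0.381).

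The BAC screen, from other samples, showed how often divergent sites were listed again. The BAC list was split into 34 regions wherever a gap exceeded 60 kb, and 61 of the divergent sites lay in them. Of all main-arm sites in these regions 61.9% were in the BAC list at the same base and strand. Among the divergent sites 31 of 61 were (50.8%, 38.6 to 62.9), against 26 of 42 convergent sites (61.9%, 46.8 to 75.0) and 349 of 553 sites with no opposite-strand site within 250 bp (63.1%, 59.0 to 67.0). Neither difference passed Fisher's exact test (adjusted p of 0.316 and 0.142). Within 5 bp, 37 of the 61 divergent sites were listed (60.7%), against 71.4% of the convergent sites and 71.1% of those with no opposite-strand site within 250 bp. The differences at the same base, of -11.1 and -12.3 percentage points, depended on the settings. That from sites without such a neighbour was -15.0 and passed the test with regions split at gaps over 40 kb (adjusted Fisher's exact p = 0.0479). With pairs of at most 150 bp the differences were 12.1 and 4.70. Without the 25% of sites with the highest numbers they were -25.9 and -14.9 (adjusted Fisher's exact p = 0.0623 for both).

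Taken pair by pair, 25 divergent mutual pairs lay in the regions. Both sites were in the BAC list in 8 of them (32.0%, 17.2 to 51.6), 1 site in 9, and neither in 8. Of the 17 convergent pairs there, both sites were listed in 6 (35.3%, 17.3 to 58.7), 1 site in 8 and neither in 3. The 8 divergent pairs lay on 2R at 3481014 and 3481074 and at 3569145 and 3569150, on 3L at 3825424 and 3825498, at 5659814 and 5659960 and at 7753394 and 7753537, on 3R at 2824950 and 2825095 and at 11943901 and 11943910, and on X at 8072736 and 8072826. They were 60, 5, 74, 146, 143, 145, 9 and 90 bp across. All 8 were thus among the 18 pairs of at most 150 bp in the regions, 15 of which had at least 1 site in the BAC list. Of the 7 pairs that were wider, none had both and 2 had 1 site there at the same base. Within 5 bp, the wider pairs from 7140918 on 2R and from 12759967 on 3R also had 1 site listed. Over all 25 pairs, both sites were listed within 5 bp in 9, 1 site in 12 and neither in 4. In the 9 pairs with 1 site listed at the same base, that site had the lower genome-wide number of its pair in 7, a small count that was not tested.

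Seen from the BAC list, the same rule found 42 divergent and 29 convergent sites and 18 divergent mutual pairs, 4 to 223 bp across with a median of 82.5 bp. Of these 18 pairs, 7 were pairs of the genome-wide list at the same bases, 7 had 1 site there and 4 had none. The other pair with both sites in the BAC list, on X, was not a mutual pair of the BAC list, in which a further minus-strand site at 8072787 lay 39 bp from the plus-strand site. On 3L the BAC pair at 19786660 and 19786781 had its sites 1 and 4 bp from the genome-wide pair at 19786659 and 19786785, so that it counted as not listed at the same base.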

How the data were processed

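STAP-seq start sites of S2 cells were analysed as deposited. Each list gives positions in bp that the authors deposited, with strand and a serial number; no count or level is held, and how sites were called or replicates pooled is not stated in the labels. The submitters' processing notes name dm3, CASAVA 1.9.1 and Bowtie 0.12.9 without a role. No depth is known.

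Nearest opposite-strand sites were found with Python 3.11.15, numpy 2.4.6 and pandas 2.3.3. Shares were compared by two-sided Fisher's exact tests and a two-sided exact binomial test (scipy 1.17.1), BH-adjusted within each family, with Wilson 95% intervals; figures used matplotlib 3.10.9. Sites are not replicates and are not independent where close. The rule was tested on a simulated list of well-separated pairs and single sites, and Fisher's test on simulated independent counts. Neither simulation held close sites that depend on each other, and the exact binomial test was not simulated. The members and comparisons were chosen with earlier results of these data known. The test of pairs standing alone, the spacing of 54 to 56 bp, the pairs with the lowest single numbers, the 1 Mb windows and the splits by run and by XHet were added after the values were seen. Pairs were otherwise named by rule: the 5 with the lowest higher number, the 5 closest (6 with a tie) and widest, the 5 loci with most divergent sites, and those in both lists. Alternatives changed the distance limit, the sites, the arms, the strand, and the BAC match and gap. BAC samples with the enhancers of ham, ncm, sgl, ssp3 and, in ovarian somatic cells, tj were not analysed here.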

Additional observations from a re-analysis of the deposited data

How the results depend on the processing

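No paired analysis was possible because neither list has a column for any sample, and no replicate could be left out. Differences here are in percentage points, divergent sites minus the sites compared, and every p is exact and adjusted as in the results; the causes of the changes were not tested. Of 89 recomputed values 25 equalled the reported ones exactly, 12 of them because there was no orientation tie to recount. Of the other 64, 46 kept their direction and their side of the threshold or stayed within their interval. With pairs limited to 150 bp the median spacing was 58 bp by construction, the arms against the Het scaffolds differed by 8.64 points and the minus-strand excess over 50% was 4.28 points, neither past the threshold. In that setting the difference from convergent sites turned to -0.657 for same-strand neighbours and to 12.1 for the BAC list, and that from sites with no opposite-strand neighbour turned to 4.70 for the BAC list. Without the 25% of sites with the highest numbers the Het difference was 5.87 and the minus-strand excess 0.407, neither past the threshold, while the differences from convergent sites turned to -0.399 for same-strand neighbours and to 1.22 for the lowest-numbered 10%. With mutual pairs alone the Het difference was 15.2 (exact p = 0.0573) and that of same-strand neighbours against all other sites -1.08. The Het difference without XHet was 10.04. On minus-strand sites alone the differences in the lowest-numbered 10% turned to 1.12 and 0.0645. With BAC gaps of 40 kb the difference from sites with no opposite-strand neighbour was -15.0 and passed the threshold. The minus-strand excess of 6.44 points was 3.96 without pairs in 1 run of numbers. It was 1.33 in all convergent pairs, with those in 1 run of numbers included. The small numbers in the BAC regions, 61 sites and 25 pairs, limit what those comparisons can show.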

Other observations

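Few divergent mutual pairs had another one close by: in 6 cases neighbouring pairs were under 2 kb apart. In 3 of these 6 the spacings of the neighbouring pairs differed by 1 bp, a pattern singled out after the positions were seen and not tested. On 2R a pair from 7800396 to 7800451 was 55 bp across, and the next, from 7801355 to 7801411, was 56 bp across. On 3R the pairs from 2824595 to 2824739 and from 2824950 to 2825095 were 144 and 145 bp across. On chromosome 4 the pairs from 613178 to 613213 and from 614860 to 614896 were 35 and 36 bp across. In the pairs on 3R, the BAC list held the minus-strand site of the first and both sites of the second. The shortest stretch between neighbouring pairs was 64 bp, on 3L, where a pair 7 bp across ended at 14420497 and one 32 bp across began at 14420561.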
